A study of Mus musculus with 12 samples.

Results

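Collagens are the main structural proteins of the extracellular matrix, and their genes were taken as every gene in the table of expression values whose symbol consists of Col, a number, the letter a and a number. This rule found 41 genes of 21881. They comprised 11 genes of fibril-forming chains, 6 of the basement membrane chains of type IV collagen, 9 of fibril-associated collagens with interrupted triple helices (FACIT) and 15 others, which include the beaded-filament, network, multiplexin and transmembrane collagens. Col6a3, Col6a5, Col21a1 and Col26a1 were not analysed here. The collagen-like genes Colq, Colec10, Colec11, Colec12 and Col4a3bp do not match the rule. The rule itself uses gene symbols and no expression values, but the members were chosen with earlier results of these data known.

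RNA was sequenced from 12 polyadenylated RNA libraries of mouse mesenchymal stem cells of bone marrow, 3 in each of 4 groups. All cells were of the C57BL/6 strain, had been immortalized, had been grown from single cells and were transfected with a small RNA duplex at 20 nM 48 h before harvest. WT_siCtrl cells were Dicer f/f, with floxed but intact alleles, and received a nontargeting siRNA. KO_siCtrl cells were Dicer -/-, lacking the nuclease that makes mature microRNAs, and received the same nontargeting siRNA. KO_let-7g cells were Dicer -/- and received a synthetic let-7g duplex, and KO_siNr6a1 cells were Dicer -/- and received an siRNA against Nr6a1, an orphan nuclear receptor of early development and the germ line. Since the lines are clonal, loss of Dicer and a difference between clones cannot be told apart in any comparison with WT_siCtrl, whereas the 3 Dicer -/- groups differ in the transfected duplex. The study asked which genes respond to loss of Dicer, to the return of 1 microRNA and to lowering of Nr6a1.

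A collagen molecule is 3 chains wound into a triple helix. Type I, the main protein of bone and tendon, joins products of Col1a1 and Col1a2, type III is made from Col3a1 alone, and type V chains (Col5a1, Col5a2, Col5a3) enter type I and III fibrils and limit their width. Type IV chains are secreted as networks that carry basement membranes, FACIT chains sit on the surface of fibrils, and type VI chains form beaded filaments around cells. Stromal cells of bone marrow and osteoblasts are major producers of type I collagen. MicroRNAs bind sites in 3′ untranslated regions (3′ UTRs) through bases 2 to 8, the seed, and lower the level or translation of the RNA. Collagen transcripts are known targets of the miR-29 family, which Dicer -/- cells cannot make in mature form.

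The mature microRNAs are shown because one was returned to the cells and the others are the family best known for collagen sites, with the seed in capitals and coordinates of RefSeq in the mouse build GRCm38.p6. The sequence of the transfected duplex was not among the sources used here.
mmu-let-7g-5p (chr9:106178846-106178867, + strand): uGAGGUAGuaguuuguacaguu
mmu-miR-29a-3p (chr6:31062673-31062694, - strand): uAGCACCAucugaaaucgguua
mmu-miR-29b-3p (chr1:195037091-195037113, + strand): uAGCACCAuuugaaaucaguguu
mmu-miR-29c-3p (chr1:195037600-195037621, + strand): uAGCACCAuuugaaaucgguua
The 3 miR-29 members share 1 seed, which differs from that of let-7g. Matches to both seeds were searched in the longest annotated 3′ UTR of each gene (GENCODE M21): an 8-base match to seed and following A (CTACCTCA for let-7, TGGTGCTA for miR-29), or 7 bases of it. Of the 21 collagen genes that passed the filter on low values described below, 3 held the let-7 8-base match (14.3%), as did 3.6% of the 10206 tested genes with a 3′ UTR. Any let-7 match of 7 or 8 bases was found in 10 of 21 (47.6%, against 16.7%). The miR-29 8-base match was found in 13 of 21 (61.9%, against 3.33%), and any miR-29 match in 18 (85.7%, against 19.6%). The median 3′ UTR was 1110 bases long in these collagen genes and 1180 in all tested genes. A match is a description of letters and was not tested as a binding site. The let-7 8-base matches in tested collagen genes and the 7-base matches to the whole seed are shown as a basis for the let-7g comparison, with the match in capitals and its first base counted from the start of the 3′ UTR.
Col1a2 (base 415 of 882): aaaggtttgaaCTACCTCAagacactttgc
Col3a1 (base 403 of 959): ccctatgttaaCTACCTCAactggtcagaa
Col5a2 (base 976 of 1763): cttagcatgacCTACCTCAtctctgcaagc
Col1a1 (base 786 of 1423): ttgctgaaagaCTACCTCgttcttgtctt
Col27a1 (base 590 of 1683): ggtgctgtgtgCTACCTCccactgtgaaa
The first 3 hold the 8-base match, and Col1a1 and Col27a1 hold the 7-base match to the seed without the following A.

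Expression was read as FPKM (mapped fragments relative to transcript length and to the library's total), so levels of different genes can be set side by side per length. A gene was tested if its FPKM was at least 1 in at least 3 libraries, which held for 11801 genes and for 21 of the 41 collagen genes: 8 of 11 fibrillar, 4 of 6 basement membrane, 2 of 9 FACIT and 7 of 15 others. Tests used limma on log2(FPKM + 1) over all 12 libraries, and genes were called where the p adjusted over all tested genes was under 0.05. Fold changes are on that scale, which understates changes of low genes, with their standard error after the ± sign. Nothing in the labels ties the libraries of a group to separate cultures, and p-values therefore reflect the spread of these libraries alone, part of which could be technical. Total reads are unknown. Relative depth, read from the lowest values, was 1 to 1.82, and every KO_let-7g library was deeper than every KO_siCtrl library.

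The targeted genes were read first. Nr6a1 FPKM was 1.12 ± 0.158 in WT_siCtrl and 11.7 ± 1.32 in KO_siCtrl, and 4.22 ± 1.04 in KO_let-7g and 3.68 ± 0.539 in KO_siNr6a1 (SD, n = 3). It was higher in KO_siCtrl than in WT_siCtrl (log2 fold change 2.59 ± 0.15, adjusted p = 1.28e-07), and it was lower than in KO_siCtrl with let-7g (log2 fold change -1.30 ± 0.15, adjusted p = 4.67e-05) and with its own siRNA (log2 fold change -1.44 ± 0.15, adjusted p = 7.34e-05). Dicer1 FPKM was 6.58 ± 1.45 in WT_siCtrl and 3.86 ± 0.214 in KO_siCtrl, and 2.70 ± 0.290 in KO_let-7g and 3.15 ± 0.392 in KO_siNr6a1. A value for the whole gene does not show whether a floxed exon is absent. Of 11 markers of mesenchymal stem cells, 9 passed the filter and the summed FPKM of the list overlapped between groups (628 to 721 FPKM in WT_siCtrl and 606 to 669 in KO_siCtrl), with Thy1 at or near 0 and Lepr under 1 on average in each group. Most of this sum was Itgb1 (mean 418 in WT_siCtrl and 333 in KO_siCtrl), and 8 of the 9 were called in KO_siCtrl against WT_siCtrl, 4 higher, such as Ly6a (log2 fold change 1.41) and Cd44 (0.89), and 4 lower, such as Alcam (-1.29) and Pdgfra (-0.93). Among all tested genes, 29.1% were called higher and 25.2% lower in this comparison. Of 7 blood markers, Ptprc was at or near 0 and Cd68, a gene of macrophages, alone passed the filter. The blood sum was 1.85 to 2.48 FPKM in WT_siCtrl and 1.32 to 2.33 in KO_siCtrl, and 4.41 to 6.93 in KO_let-7g and 1.63 to 1.86 in KO_siNr6a1, with Cd68 higher in KO_let-7g than in KO_siCtrl (log2 fold change 1.26 ± 0.17, adjusted p = 0.000133). Cd34 averaged 0.702 FPKM in WT_siCtrl and 0.00794 in KO_siCtrl. The part of these differences in the collagen results was not tested. Summed markers of endothelium reached at most 0.278 FPKM in a library.

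Summed collagen RNA was highest in the Dicer f/f cells and lowest on average in the KO_siCtrl cells. The 41 genes together reached 4117, 4049 and 4796 in the WT_siCtrl libraries and 1744, 1779 and 1588 in those of KO_siCtrl, and 2094, 2098 and 1623 in KO_let-7g and 2241, 2486 and 2141 in KO_siNr6a1 (summed FPKM). All WT_siCtrl sums lay above those of the other groups. All KO_siNr6a1 sums lay above those of KO_siCtrl, whereas the KO_let-7g and KO_siCtrl sums overlapped. As a percentage of the FPKM of all genes this was 0.739 ± 0.0690 in WT_siCtrl and 0.310 ± 0.0209 in KO_siCtrl, and 0.346 ± 0.0607 in KO_let-7g and 0.422 ± 0.0242 in KO_siNr6a1 (SD, n = 3). Groups of 3 libraries cannot give an exact two-sided permutation p below 0.1, and the sums were not tested.

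**Figure D1:**
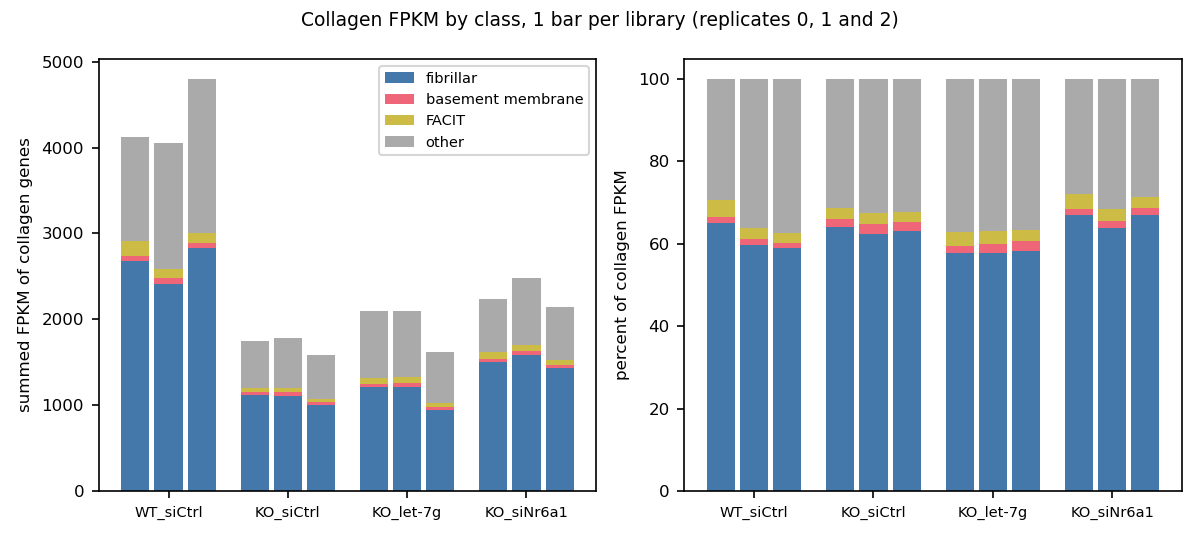
Summed FPKM of the 41 collagen genes (left) and share of each class in it (right, percent), 1 bar per library with the 3 libraries of a group side by side. Sums in WT_siCtrl are 4049 to 4796, and sums in the other groups reach at most 2486, while fibrillar genes hold the largest share in each bar.

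The percentage of the collagen FPKM held by fibrillar genes was 61.2 ± 3.36 in WT_siCtrl and 63.2 ± 0.863 in KO_siCtrl, and 57.9 ± 0.334 in KO_let-7g and 65.9 ± 1.82 in KO_siNr6a1 (SD, n = 3), a share whose WT_siCtrl and KO_siCtrl values overlapped. The summed FPKM of fibrillar genes was 2639 ± 208 in WT_siCtrl and 1076 ± 64.4 in KO_siCtrl, and 1122 ± 152 in KO_let-7g and 1507 ± 76.2 in KO_siNr6a1, with no overlap between WT_siCtrl and KO libraries. That of basement membrane genes was 63.4 ± 2.18 in WT_siCtrl and 37.9 ± 4.96 in KO_siCtrl, and 39.6 ± 5.91 in KO_let-7g and 38.3 ± 5.70 in KO_siNr6a1. FACIT genes summed to 135 ± 33.0 in WT_siCtrl and 43.5 ± 6.34 in KO_siCtrl, and 62.1 ± 15.4 in KO_let-7g and 70.8 ± 10.3 in KO_siNr6a1. The other genes summed to 1484 ± 293 in WT_siCtrl and 546 ± 32.1 in KO_siCtrl, and 714 ± 103 in KO_let-7g and 673 ± 94.0 in KO_siNr6a1. On average each class was highest in WT_siCtrl and lowest in KO_siCtrl.

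Between KO_siCtrl and WT_siCtrl, 14 of the 21 tested collagen genes were lower and 4 were higher, where 25.2% of all tested genes were lower and 29.1% higher. Their median log2 fold change was -1.06, against 0.04 over all tested genes. Col27a1 and Col4a6 passed the filter through WT_siCtrl alone. Of the other 19, 12 were lower and 4 higher, with a median of -1.06. Tested genes with the miR-29 8-base match were called in both directions. Col1a1, Col2a1, Col4a1, Col4a6, Col5a2, Col6a2, Col8a1 and Col15a1 were lower. Col3a1, Col5a1 and Col7a1 were higher, while Col4a5 and Col5a3 were not called. The part of miR-29 in these changes was not tested. With let-7g in KO cells, 5 collagen genes were higher and 1 lower than in KO_siCtrl (all genes 27.5% higher and 18.2% lower), and the median was 0.02 against 0.08: in each direction the share of collagen genes called was below that of all genes. Without Col5a3, which would not have passed the filter but for KO_let-7g, 4 of 20 were higher and 1 lower. Scaling the libraries by quantiles gave 4 higher and 3 lower collagen genes, and by the median of ratios 4 and 2, while all genes were then split 2600 higher to 2615 lower and 2691 to 2649, from 3241 to 2142. With the Nr6a1 siRNA, 7 were higher and 1 lower (all genes 13.2% higher and 16.3% lower), with a median of 0.32 against -0.06. Both treatments were compared with the same KO_siCtrl libraries, which were also the KO side of the first comparison. Compared with each other, KO_let-7g cells had 6 collagen genes lower and 1 higher than KO_siNr6a1 cells (all genes 13.3% lower and 27.6% higher), the higher one being Col5a3, with a median of -0.06 against 0.12. Scaling by the median of ratios moved the all-gene median of this comparison to 0.00 and the split of all genes from 3262 higher and 1564 lower to 2129 and 2260, and gave 7 collagen genes lower and 1 higher.

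**Figure D2:**
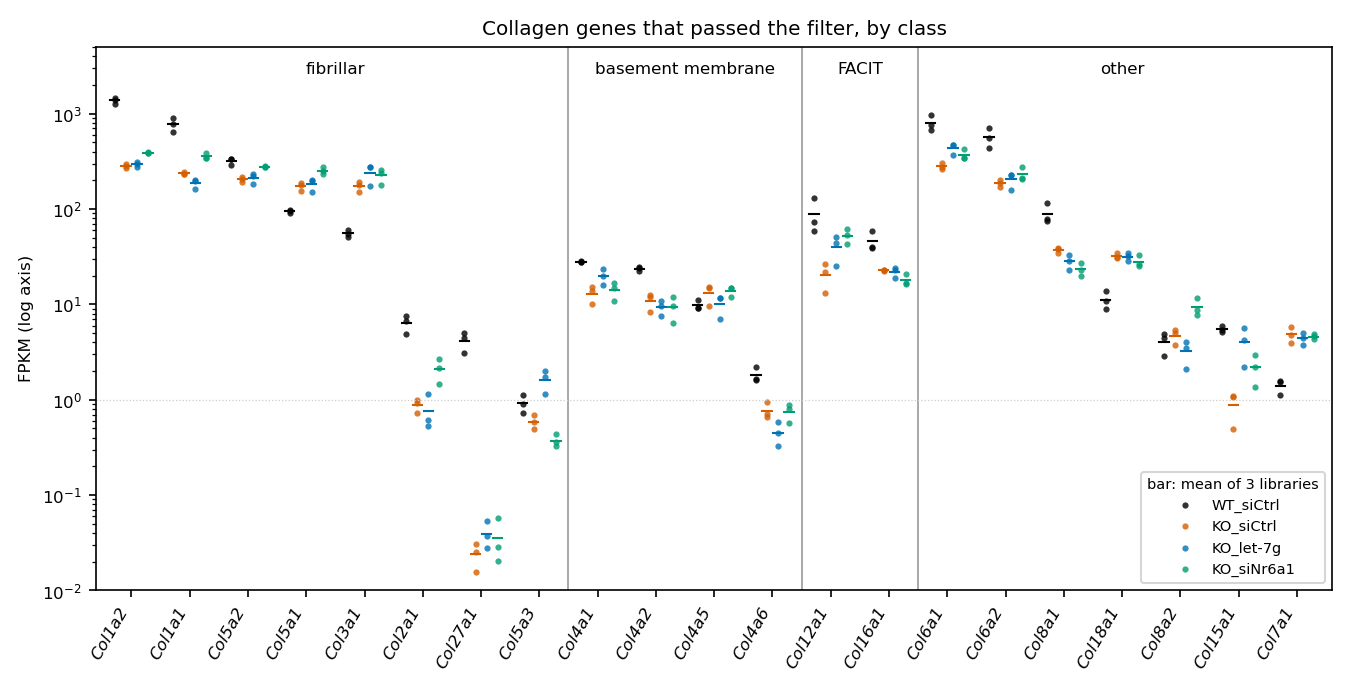
FPKM (log axis) of the 21 tested collagen genes in each of the 12 libraries, ordered by class, with points for libraries and a bar for the mean of 3. Col1a2, Col1a1, Col6a1 and Col6a2 stand highest in WT_siCtrl, while Col3a1, Col5a1, Col18a1 and Col7a1 have their WT_siCtrl points below all others.

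Among the fibrillar genes, the KO_siCtrl cells had less RNA of both type I chains and more of Col3a1 and Col5a1: 5 of 8 tested genes were lower than in WT_siCtrl and 2 were higher, with a median log2 fold change of -1.17 (all tested genes 0.04, with 25.2% lower and 29.1% higher). Without Col27a1, which passed the filter through WT_siCtrl alone, 4 of 7 were lower and 2 higher, with a median of -0.64. Col1a2, the alpha 2 chain of type I collagen, had the highest FPKM of all collagen genes in each WT_siCtrl library. Its FPKM was 1396, 1261 and 1476 in the WT_siCtrl libraries and 295, 285 and 269 in those of KO_siCtrl, and 311, 299 and 274 in KO_let-7g and 384, 385 and 400.4 in KO_siNr6a1. Every KO library lay below every WT_siCtrl library, and in KO_siCtrl the gene was lower (log2 fold change -2.28 ± 0.08, adjusted p = 4.53e-09). Col1a1, the alpha 1 chain, had an FPKM of 785, 647 and 901 in the WT_siCtrl libraries and 243, 235 and 230.2 in those of KO_siCtrl, and 198, 201 and 163 in KO_let-7g and 346, 387 and 343 in KO_siNr6a1. Here too all KO values lay below WT_siCtrl. It was also lower in KO_siCtrl (log2 fold change -1.70 ± 0.12, adjusted p = 7.34e-07). In these bulk samples, less RNA per cell and fewer cells of a producing type cannot be told apart.

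Col3a1, the only chain of type III collagen, moved the other way. Its FPKM was 54.6, 60.7 and 51.5 in the WT_siCtrl libraries and 192, 181 and 150.4 in those of KO_siCtrl, and 277, 273 and 175 in KO_let-7g and 241, 253 and 180.0 in KO_siNr6a1, so each KO library exceeded each WT_siCtrl library (log2 fold change 1.63 ± 0.18, adjusted p = 2.56e-05). Col5a1, a type V chain, had an FPKM of 97.6, 95.9 and 89.9 in the WT_siCtrl libraries and 178, 188 and 156 in those of KO_siCtrl, and 198, 202 and 151 in KO_let-7g and 251, 274 and 233 in KO_siNr6a1. All KO values lay above WT_siCtrl, and it was higher in KO_siCtrl (log2 fold change 0.87 ± 0.12, adjusted p = 9.01e-05). Its partner Col5a2 had an FPKM of 334, 335 and 293 in the WT_siCtrl libraries and 206, 218 and 193 in those of KO_siCtrl, and 221, 232 and 182 in KO_let-7g and 276, 282 and 275 in KO_siNr6a1. All KO values lay below WT_siCtrl, and it was lower in KO_siCtrl (log2 fold change -0.64 ± 0.10, adjusted p = 0.000235), so 2 chains of 1 collagen type changed in opposite directions. Col5a3, the least abundant type V chain, stayed at 0.324 to 2.03 FPKM and was not called between KO_siCtrl and WT_siCtrl (log2 fold change -0.27, 95% interval -0.56 to 0.02, adjusted p = 0.102).

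Col2a1 and Col27a1, fibrillar genes of cartilage, were low in all groups and lower in KO_siCtrl. Col2a1, the chain of cartilage type II collagen, had an FPKM of 4.94, 7.64 and 6.63 in the WT_siCtrl libraries and 0.727, 0.998 and 0.920 in those of KO_siCtrl, and 0.527, 1.16 and 0.613 in KO_let-7g and 1.45, 2.69 and 2.17 in KO_siNr6a1 (log2 fold change -1.96 ± 0.19, adjusted p = 7.05e-06 in KO_siCtrl). Col27a1 had an FPKM of 3.08, 5.01 and 4.45 in the WT_siCtrl libraries and 0.0250, 0.0311 and 0.0158 in those of KO_siCtrl, and 0.0536, 0.0279 and 0.0372 in KO_let-7g and 0.0572, 0.0203 and 0.0288 in KO_siNr6a1 (log2 fold change -2.32 ± 0.12, adjusted p = 8.52e-08). Col27a1 passed the filter through its WT_siCtrl libraries alone, so a difference from WT_siCtrl followed from the filter. Of the cartilage markers, Sox9 alone passed the filter and was higher in KO_siCtrl, with a mean FPKM of 7.26 ± 1.37 in WT_siCtrl and 16.2 ± 2.72 in KO_siCtrl, and 18.9 ± 1.94 in KO_let-7g and 32.8 ± 6.65 in KO_siNr6a1. Other members, not tested, had lower means in KO_siCtrl than in WT_siCtrl: Matn3 (0.0817 against 0.628 FPKM), Comp (0.260 against 0.637) and Acan (0.00728 against 0.170). Matn1, Hapln1 and Lect1 were at most 0.120 FPKM in any library.

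None of the 3 tested collagen genes with the let-7 8-base match was called lower with let-7g than in KO_siCtrl (all tested genes 18.2% lower). These 3 genes are too few to be set against that share. Col1a2 was not called (log2 fold change 0.06, 95% interval -0.12 to 0.24, adjusted p = 0.603), nor was Col5a2 (log2 fold change 0.04, 95% interval -0.18 to 0.25, adjusted p = 0.797), and each lay on the other side of 0 when the libraries were scaled by the median of ratios. Col3a1 was not called either (log2 fold change 0.44, 95% interval 0.04 to 0.85, adjusted p = 0.0705), with values above KO_siCtrl in 2 of 3 libraries. With the replicate number as a block, Col3a1 was called higher (adjusted p = 0.0033, and 0.0033 to 0.22 over the settings). Col1a1, with the 7-base match, was lower in KO_let-7g (log2 fold change -0.34 ± 0.12, adjusted p = 0.041), but this call was lost in 6 of 17 other settings: without a filter, without any 1 of the KO_siCtrl libraries and without KO_let-7g replicate 0 or 2 (adjusted p 0.0156 to 0.151 over the settings). Col5a3 was higher in KO_let-7g than in KO_siCtrl (log2 fold change 0.71 ± 0.13, adjusted p = 0.00108), at 2.03, 1.72 and 1.14 against 0.687, 0.491 and 0.587 FPKM, and it has no let-7 match. It passed the filter mainly through its KO_let-7g libraries. Col27a1, with the same 7-base match as Col1a1, was at most 0.0536 FPKM in the KO_siCtrl and KO_let-7g libraries and was not called.

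With the Nr6a1 siRNA, 5 of 8 tested fibrillar genes were higher than in KO_siCtrl and the other 3 were not called. The class median was 0.45 (all tested genes -0.06, with 13.2% higher). The 5 were Col1a1 (log2 fold change 0.60 ± 0.12, adjusted p = 0.00402), Col1a2 (log2 fold change 0.46 ± 0.08, adjusted p = 0.00195), Col5a1 (log2 fold change 0.54 ± 0.12, adjusted p = 0.00598), Col5a2 (log2 fold change 0.43 ± 0.10, adjusted p = 0.00738) and Col2a1 (log2 fold change 0.70 ± 0.19, adjusted p = 0.0164). The Col2a1 call was lost without KO_siCtrl replicate 0, KO_siNr6a1 replicate 1 or KO_siNr6a1 replicate 2 (adjusted p 0.000538 to 0.0673 over the settings). Col3a1 was not called (log2 fold change 0.36, 95% interval -0.05 to 0.76, adjusted p = 0.17), but was called higher with the replicate block (adjusted p = 0.0142, and 0.0142 to 0.719 over the settings). All 5 were lower in KO_let-7g than in KO_siNr6a1 (all tested genes 13.3% lower), with log2 fold changes of -0.94 for Col1a1 (adjusted p = 0.000179), -0.40 for Col1a2 (0.00269), -0.47 for Col5a1 (0.0085), -0.40 for Col5a2 (0.00802) and -0.81 for Col2a1 (0.00574). These 5 were picked as higher in the same KO_siNr6a1 libraries, which favours this direction, so the second comparison is no separate support. Col5a3 was called higher in KO_let-7g than in KO_siNr6a1 (log2 fold change 0.92 ± 0.13, adjusted p = 0.000294), but it passed the filter mainly through KO_let-7g, and at a filter on a mean FPKM of at least 5 it was not tested.

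The type I chains were below their WT_siCtrl level in both treated groups. Col1a1 was lower in KO_let-7g (log2 fold change -2.04) and in KO_siNr6a1 (-1.10) than in WT_siCtrl, as did Col1a2 (-2.22 and -1.82). Col5a2 in KO_siNr6a1 was not called against WT_siCtrl (log2 fold change -0.21, 95% interval -0.42 to 0.01, adjusted p = 0.0978), although its 3 values lay below the 3 WT_siCtrl values. In all, 13 of the 21 tested collagen genes were lower and 5 higher in KO_let-7g than in WT_siCtrl (all genes 22.8% lower and 35.3% higher, and 3394 lower to 3116 higher genes after median of ratios scaling, from 2696 to 4169), and 13 were lower and 5 higher in KO_siNr6a1 than in WT_siCtrl (all genes 27.4% lower and 27% higher). Some of these genes would not have passed the filter but for 1 of the compared groups. Without Col27a1, Col4a6 and Col5a3, 11 of 18 were lower and 4 higher in KO_let-7g than in WT_siCtrl. For KO_siNr6a1, leaving out Col27a1 and Col4a6 gave 11 of 19 lower and 5 higher.

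The chain balance of the fibrillar types differed between groups. Col1a1 FPKM divided by Col1a2 FPKM was 0.562, 0.513 and 0.610 in the WT_siCtrl libraries and 0.825, 0.825 and 0.855 in those of KO_siCtrl, and 0.638, 0.671 and 0.595 in KO_let-7g and 0.902, 1.01 and 0.857 in KO_siNr6a1. The WT_siCtrl values lay below all of KO_siCtrl and KO_siNr6a1, and the KO_let-7g values lay below all KO_siCtrl values. Col5a1 to Col5a2 rose from 0.295 ± 0.0109 in WT_siCtrl to 0.845 ± 0.0305 in KO_siCtrl, and was 0.865 ± 0.0334 in KO_let-7g and 0.910 ± 0.0620 in KO_siNr6a1. Col3a1 to Col1a1 was 0.0735 ± 0.0187 in WT_siCtrl and 0.737 ± 0.0733 in KO_siCtrl, and 1.28 ± 0.178 in KO_let-7g and 0.625 ± 0.0897 in KO_siNr6a1, above 1 in each KO_let-7g library and below 1 in the other 9. Ratios of 2 FPKM values within a library do not depend on its scaling, and they show unequal change of the chains, not which of them changed.

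**Figure D3:**
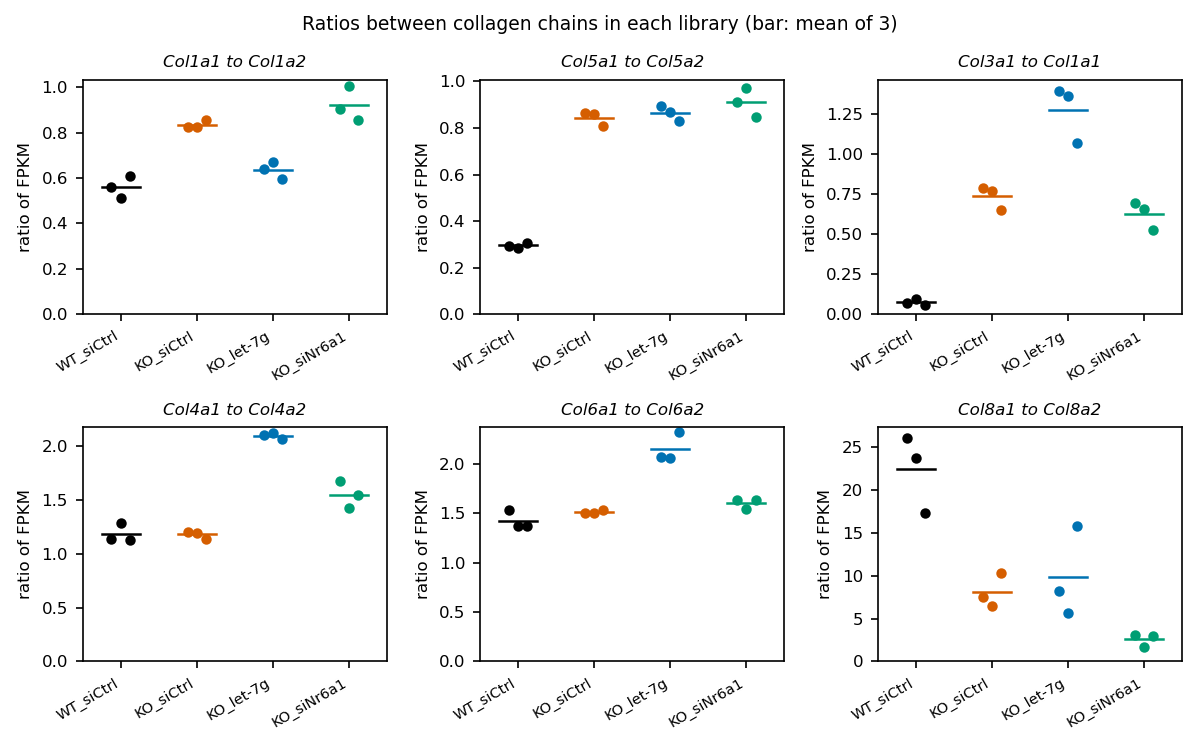
Ratio of FPKM between 2 collagen genes in each library (points) for 6 pairs of chains, with a bar at the mean of 3 libraries and every axis starting at 0. The Col5a1 to Col5a2 ratio separates WT_siCtrl from all KO libraries, and the Col4a1 to Col4a2 and Col6a1 to Col6a2 ratios are highest in the 3 KO_let-7g libraries.

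Most basement membrane genes were lower in KO_siCtrl: 3 of 4 tested genes were lower than in WT_siCtrl and the other, Col4a5, was not called, with a median log2 fold change of -0.87 (all tested genes 0.04, with 25.2% lower). Without Col4a6, which passed the filter through WT_siCtrl alone, 2 of 3 were lower, with a median of -1.06. Col4a1, a chain of the common type IV network, had an FPKM of 27.6, 28.5 and 27.8 in the WT_siCtrl libraries and 10.1, 15.0 and 13.7 in those of KO_siCtrl, and 16.1, 23.3 and 19.7 in KO_let-7g and 10.8, 16.9 and 15.0 in KO_siNr6a1 (log2 fold change -1.07 ± 0.18, adjusted p = 0.000431). Col4a2, which joins 2 alpha 1 chains in that network, had an FPKM of 24.3, 22.2 and 24.6 in the WT_siCtrl libraries and 8.34, 12.6 and 12 in those of KO_siCtrl, and 7.64, 11 and 9.53 in KO_let-7g and 6.44, 11.8 and 9.70 in KO_siNr6a1 (log2 fold change -1.06 ± 0.20, adjusted p = 0.00108). Col4a6 was lower (log2 fold change -0.67 ± 0.12, adjusted p = 0.000705), with means of 1.82 FPKM in WT_siCtrl and 0.770 in KO_siCtrl, and it too passed the filter through WT_siCtrl alone. Col4a5, another type IV chain, ranged from 6.98 to 15.2 FPKM over the 12 libraries and was not called in KO_siCtrl (log2 fold change 0.37, 95% interval -0.08 to 0.82, adjusted p = 0.145).

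Col4a1 and Col4a2 lie head to head on mouse chromosome 8 and start close together, which is why the region is shown. In RefSeq (GRCm38.p6) Col4a2 starts at 11312805 on the + strand and Col4a1 at 11312826 on the - strand, 21 bases apart. By these positions and strands the transcripts overlap at their starts, and the capitals mark this span from start to start.
chr8:11312801-11312830, + strand: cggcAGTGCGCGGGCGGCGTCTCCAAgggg
The FPKM ratio of the pair was highest with let-7g. Col4a1 was higher in KO_let-7g than in KO_siCtrl (log2 fold change 0.57 ± 0.18, adjusted p = 0.0227), with no overlap between the groups, while Col4a2 was not called (log2 fold change -0.20, 95% interval -0.65 to 0.25, adjusted p = 0.454). The Col4a1 call was lost without KO_siCtrl replicate 0, KO_let-7g replicate 1 or KO_let-7g replicate 2 (adjusted p 0.00103 to 0.0938 over the settings). The ratio of Col4a1 to Col4a2 FPKM was 1.14, 1.29 and 1.13 in the WT_siCtrl libraries and 1.21, 1.2 and 1.14 in those of KO_siCtrl, and 2.10, 2.13 and 2.07 in KO_let-7g and 1.68, 1.43 and 1.55 in KO_siNr6a1. Its WT_siCtrl and KO_siCtrl values overlapped, each KO_let-7g value was above 2, and the KO_siNr6a1 values lay between. Both genes hold 1 let-7 match of 7 bases. Col4a2 was not called with the Nr6a1 siRNA (log2 fold change -0.23, 95% interval -0.68 to 0.22, adjusted p = 0.431). Between the treatments Col4a1 was not called (log2 fold change 0.45, 95% interval 0.05 to 0.85, adjusted p = 0.0673), but was called higher in KO_let-7g with the replicate block (adjusted p = 0.00462, and 0.00462 to 0.243 over the settings).

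Both tested FACIT genes were lower in KO_siCtrl, as were 25.2% of all tested genes. Col12a1, which binds the surface of type I fibrils, had an FPKM of 132, 73.3 and 58.4 in the WT_siCtrl libraries and 21.7, 26.3 and 13.1 in those of KO_siCtrl, and 50.6, 43.5 and 25.2 in KO_let-7g and 62.3, 52.8 and 42.8 in KO_siNr6a1. Every KO_siCtrl library lay below every WT_siCtrl library (log2 fold change -2.02 ± 0.34, adjusted p = 0.000441), although the WT_siCtrl values spread widely. Col12a1 was higher with the Nr6a1 siRNA than in KO_siCtrl (log2 fold change 1.36 ± 0.34, adjusted p = 0.0119), without overlap. With let-7g it was also called higher (log2 fold change 0.93 ± 0.34, adjusted p = 0.0444), but the groups overlapped and the call was lost in 9 of 17 other settings, among them each scaling tried and leaving out KO_siCtrl replicate 0 or 2 or KO_let-7g replicate 0 or 1 (adjusted p 0.0014 to 0.163 over the settings). The treatments did not differ in it beyond the test's threshold (log2 fold change -0.44, 95% interval -1.19 to 0.31, adjusted p = 0.334). Against WT_siCtrl, Col12a1 in KO_siNr6a1 was not called (log2 fold change -0.66, 95% interval -1.41 to 0.09, adjusted p = 0.122). Col16a1, a FACIT chain of fibroblasts and other tissues, ranged over 39.3 to 59.5 FPKM in WT_siCtrl and 22.6 to 23.1 in KO_siCtrl (log2 fold change -0.97 ± 0.15, adjusted p = 0.000275), and neither treatment was called against KO_siCtrl.

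Of the 7 other tested genes, 4 were lower and 2 higher in KO_siCtrl than in WT_siCtrl, with a median log2 fold change of -1.21 (all tested genes 0.04, with 25.2% lower and 29.1% higher). The type VI chains were the most abundant of them. Col6a1 FPKM was 670.1, 763 and 971 in the WT_siCtrl libraries and 278, 300.5 and 262 in those of KO_siCtrl, and 473, 472 and 366 in KO_let-7g and 346, 431 and 339 in KO_siNr6a1, lower in KO_siCtrl (log2 fold change -1.5 ± 0.15, adjusted p = 1.14e-05). Col6a2 FPKM was 437, 556 and 709.8 in the WT_siCtrl libraries and 186, 200.3 and 171 in those of KO_siCtrl, and 228, 229 and 158 in KO_let-7g and 213, 279 and 208 in KO_siNr6a1, also lower (log2 fold change -1.58 ± 0.19, adjusted p = 4.49e-05). With let-7g, Col6a1 was higher than in KO_siCtrl without overlap (log2 fold change 0.63 ± 0.15, adjusted p = 0.00586), while Col6a2 was not called (log2 fold change 0.13, 95% interval -0.30 to 0.55, adjusted p = 0.629). The Col6a1 to Col6a2 ratio was 1.42 ± 0.0955 in WT_siCtrl and 1.51 ± 0.0189 in KO_siCtrl, and 2.15 ± 0.149 in KO_let-7g and 1.60 ± 0.0501 in KO_siNr6a1, highest in each KO_let-7g library. With the Nr6a1 siRNA all libraries exceeded KO_siCtrl for both chains, but neither was called (Col6a1 log2 fold change 0.40, 95% interval 0.07 to 0.74, adjusted p = 0.069). Nor did the treatments differ in Col6a1 beyond the threshold (log2 fold change 0.23, 95% interval -0.11 to 0.56, adjusted p = 0.254).

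The multiplexins, basement membrane collagens whose fragments include endostatin, moved in opposite directions. Col15a1 FPKM was 5.19, 5.42 and 5.91 in the WT_siCtrl libraries and 1.10, 1.07 and 0.491 in those of KO_siCtrl, and 4.24, 5.60 and 2.20 in KO_let-7g and 2.23, 2.95 and 1.37 in KO_siNr6a1. It was lower in KO_siCtrl (log2 fold change -1.80 ± 0.26, adjusted p = 0.000136) and higher with let-7g than in KO_siCtrl (log2 fold change 1.36 ± 0.26, adjusted p = 0.00135). KO_let-7g and WT_siCtrl libraries overlapped, and Col15a1 was not called between them (log2 fold change -0.44, 95% interval -1.0 to 0.13, adjusted p = 0.168). With the Nr6a1 siRNA its change lay at the threshold (log2 fold change 0.74, 95% interval 0.18 to 1.31, adjusted p = 0.05003) and was called in 9 of 17 other settings, among them the replicate block (adjusted p = 0.00954, and 0.00954 to 0.17 over the settings). The treatments did not differ in it beyond the threshold (log2 fold change 0.62, 95% interval 0.06 to 1.19, adjusted p = 0.0748), but did with the block (adjusted p = 0.0169, and 0.000911 to 0.258 over the settings). Col18a1, the precursor of endostatin, had an FPKM of 8.92, 10.8 and 14.0 in the WT_siCtrl libraries and 34.2, 31.0 and 31.3 in those of KO_siCtrl, and 31.9, 34.2 and 28.5 in KO_let-7g and 25.3, 32.7 and 26.4 in KO_siNr6a1, higher in every KO library (log2 fold change 1.46 ± 0.14, adjusted p = 9.51e-06 in KO_siCtrl), and was called with neither treatment against KO_siCtrl.

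Type VIII collagen, a network collagen of vessel walls and the cornea, also shifted between its chains. Col8a1 FPKM was 74.3, 115 and 77.7 in the WT_siCtrl libraries and 38.1, 34.6 and 38.9 in those of KO_siCtrl, and 28.7, 23.2 and 33.1 in KO_let-7g and 27.0, 20.1 and 23.2 in KO_siNr6a1, lower in KO_siCtrl than in WT_siCtrl (log2 fold change -1.21 ± 0.17, adjusted p = 0.000146). It was lower still with the Nr6a1 siRNA (log2 fold change -0.65 ± 0.17, adjusted p = 0.0164), a call lost without KO_siCtrl replicate 2 or KO_siNr6a1 replicate 1 (adjusted p 0.00169 to 0.065 over the settings). With let-7g Col8a1 was not called (log2 fold change -0.39, 95% interval -0.78 to -0.01, adjusted p = 0.0879). Col8a2 FPKM was 2.85, 4.84 and 4.47 in the WT_siCtrl libraries and 5.03, 5.35 and 3.77 in those of KO_siCtrl, and 3.51, 4.07 and 2.09 in KO_let-7g and 8.64, 11.7 and 7.71 in KO_siNr6a1. It was not called between KO_siCtrl and WT_siCtrl (log2 fold change 0.19, 95% interval -0.30 to 0.68, adjusted p = 0.496), and rose with the Nr6a1 siRNA (log2 fold change 0.85 ± 0.22, adjusted p = 0.0151), a call lost without the same 2 libraries (adjusted p 0.003 to 0.062 over the settings). KO_let-7g cells had less Col8a2 than KO_siNr6a1 cells (log2 fold change -1.30 ± 0.22, adjusted p = 0.000975). The ratio of Col8a1 to Col8a2 FPKM thus went from 22.4 ± 4.51 in WT_siCtrl to 8.11 ± 1.97 in KO_siCtrl and 2.62 ± 0.781 in KO_siNr6a1, while in KO_let-7g it was 9.91 ± 5.28. Col7a1, the anchoring fibril collagen of skin, had an FPKM of 1.53, 1.12 and 1.56 in the WT_siCtrl libraries and 4.79, 3.96 and 5.76 in those of KO_siCtrl, and 4.44, 3.77 and 4.99 in KO_let-7g and 4.62, 4.32 and 4.86 in KO_siNr6a1 and was higher in KO_siCtrl than in WT_siCtrl (log2 fold change 1.27 ± 0.13, adjusted p = 1.38e-05), with no call for either treatment against KO_siCtrl.

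**Figure D4:**
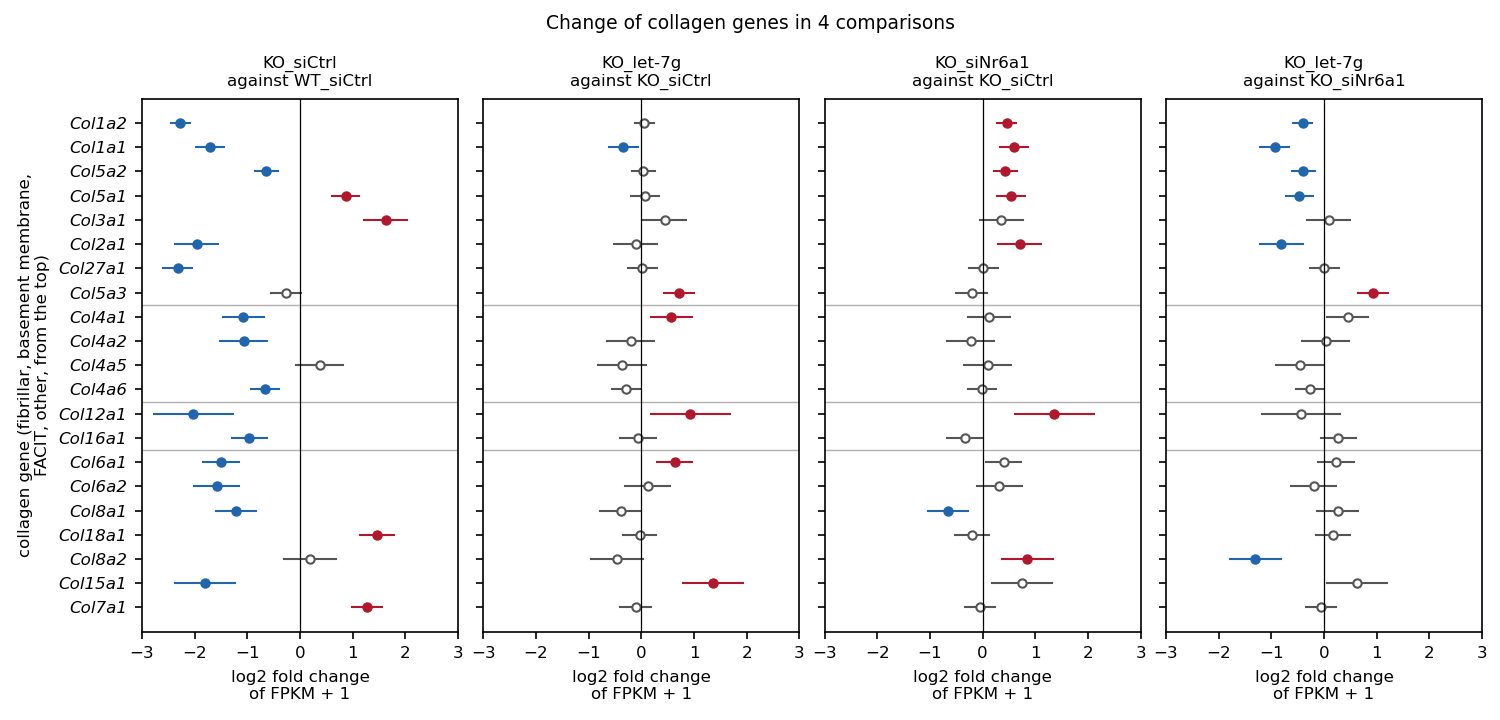
Log2 fold change of FPKM + 1 (points) with 95% intervals (lines) for the 21 tested collagen genes in 4 comparisons, with filled red points called higher, filled blue points called lower and open points not called. Falls dominate KO_siCtrl against WT_siCtrl (14 of 21, with 25.2% of all tested genes lower). Without Col27a1 and Col4a6, which passed the filter through WT_siCtrl alone, 12 of 19 were lower. Of the 7 genes called higher with the Nr6a1 siRNA (all tested genes 13.2% higher), 5 are fibrillar, as are 8 of the 21 tested collagen genes.

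The 20 collagen genes that did not pass the filter stayed low. They were the fibrillar genes Col11a1, Col11a2 and Col24a1, the basement membrane genes Col4a3 and Col4a4, the FACIT genes Col9a1, Col9a2, Col9a3, Col14a1, Col19a1, Col20a1 and Col22a1, and Col6a4, Col6a6, Col10a1, Col13a1, Col17a1, Col23a1, Col25a1 and Col28a1. The highest FPKM in any library was 1.52 among 3 fibrillar genes, 0.0456 for Col4a3 and Col4a4, 0.349 among 7 FACIT genes and 3.18 among 8 others. That last value belonged to Col10a1, the collagen of hypertrophic cartilage, which was 0.756, 3.18 and 2.15 in the WT_siCtrl libraries and at most 0.0745 in the KO libraries. Col11a1, a fibrillar partner of types II and V, averaged 1.17 ± 0.304 FPKM in WT_siCtrl and 0.242 ± 0.155 in KO_siCtrl. Col11a2, its partner chain in type XI collagen, lay the other way, at 0.363, 0.375 and 0.514 FPKM in WT_siCtrl and 0.682, 0.996 and 1.11 in KO_siCtrl. These genes were not tested.

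Genes that fold, secrete, cross-link or bind collagen were read from a list of 50, of which 42 passed the filter. In KO_siCtrl, 20 were lower and 10 higher than in WT_siCtrl, and the median log2 fold change was -0.24 (all tested genes 0.04, with 25.2% lower and 29.1% higher). Folding and modification genes were mostly lower (11 of 18, with 2 higher). Among them were the prolyl 3-hydroxylase gene Leprel2 (15.5 ± 4.19 to 1.26 ± 0.199 FPKM, log2 fold change -2.83), the prolyl isomerase gene Fkbp14 (-1.83) and Leprel4 (-1.22). Of 12 processing and cross-linking genes, 6 were lower and 4 higher. The cross-linking enzyme gene Loxl1 had the largest fall (238 ± 74.0 to 23.5 ± 4.96 FPKM, -3.26), with Loxl2 at -1.07, and Adamts14, a procollagen N-proteinase, was higher (1.32). Of 7 receptors, 3 were lower and 3 higher, including the collagen-binding integrins Itga1 (-1.54) and Itga11 (-1.26) and the collagen uptake receptor Mrc2 (1.36). Of 5 secretion genes, Ctage5 was higher (0.68) and the other 4 were not called. Mia3, the cargo receptor for collagen export, is listed at 0 in each library, which can be a failed estimate.

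With let-7g most called members of the list were lower. In KO_let-7g, 21 of 42 genes were lower and 5 higher than in KO_siCtrl (median -0.31; all tested genes 0.08, with 18.2% lower and 27.5% higher), among the lower ones Creb3l1, a transcription factor of secretory genes (48.7 ± 2.82 to 18.6 ± 2.57 FPKM, -1.35), Adamts14 (-1.44), Loxl4 (-0.98) and Itga11 (-0.98). Itga10 would not have passed the filter but for KO_siCtrl, and without it 20 of 41 were lower and 5 higher. The lysyl hydroxylase gene Plod2 was higher with let-7g (0.88) and with the Nr6a1 siRNA (1.36). With the Nr6a1 siRNA, 9 were higher and 11 lower (median -0.03; all tested genes -0.06, with 13.2% higher and 16.3% lower), with 6 of 18 folding and modification genes higher, such as the prolyl 4-hydroxylase gene P4ha3 (0.79), and 1 lower, the ion channel gene Tmem38b (-0.64). Leaving out Itga10 gave 9 of 41 higher and 10 lower with this siRNA. Of 12 processing and cross-linking genes, 2 were higher and 6 lower with the Nr6a1 siRNA (median -0.41). Among these genes, Lox, the main lysyl oxidase, rose from 224 ± 50.9 to 406 ± 9.31 FPKM (0.88). The means of Loxl1, Loxl2, Loxl3 and Loxl4 were lower than in KO_siCtrl. Directly compared, 18 of 42 were lower and 2 higher in KO_let-7g than in KO_siNr6a1 (median -0.23; all tested genes 0.12, with 13.3% lower and 27.6% higher, or 19.2% and 18% with median of ratios scaling). Serpinh1, the collagen chaperone, was among the lower ones (399 ± 21.2 against 732 ± 39.9 FPKM, -0.87), with Lox (-1.09) and Itga11 (-1.62).

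**Figure D5:**
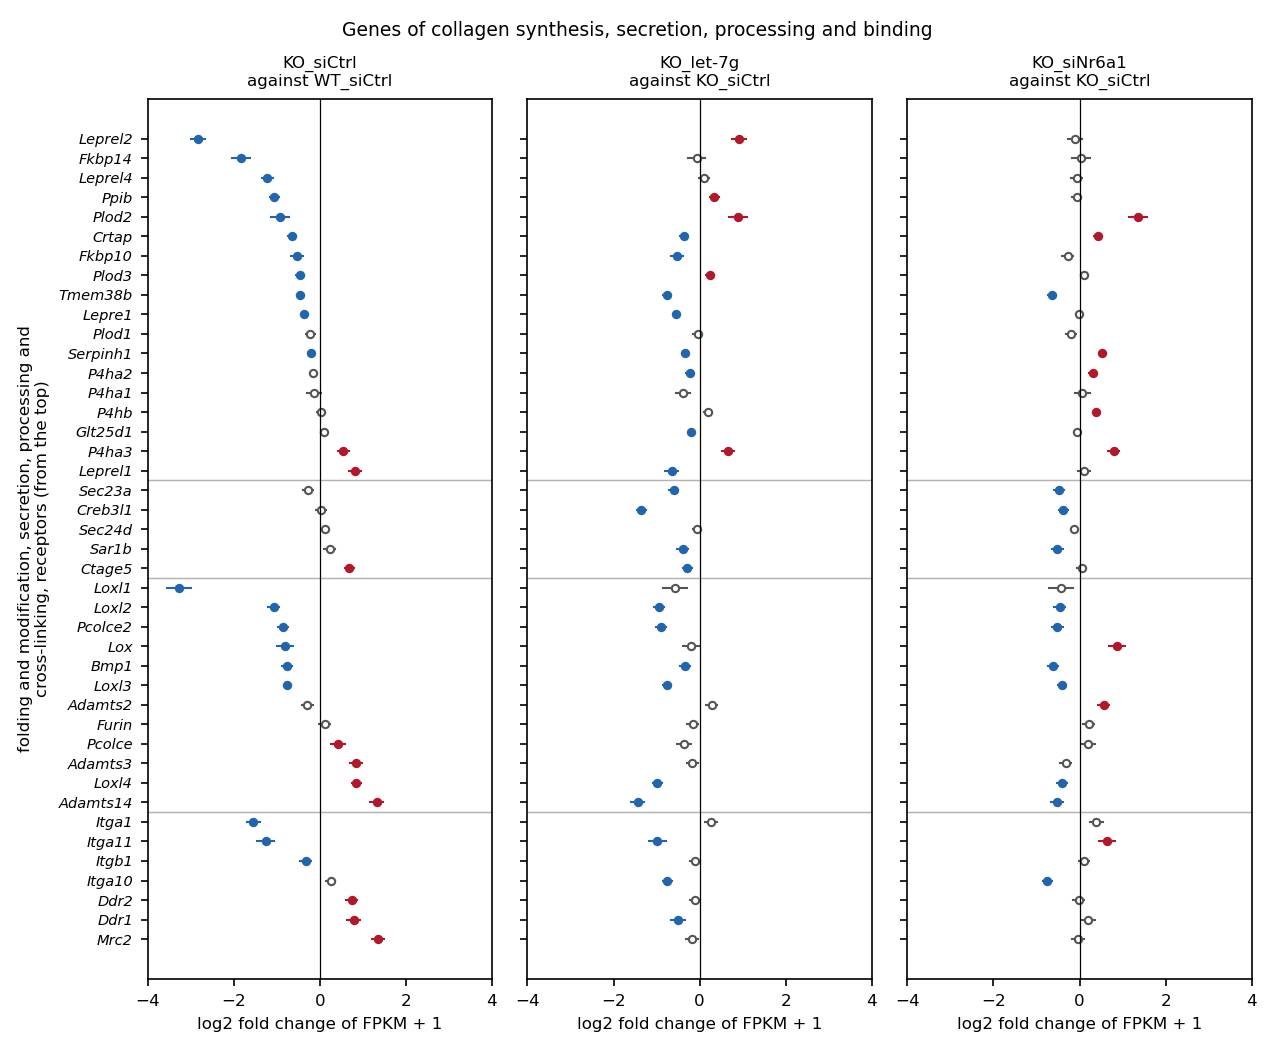
Log2 fold change of FPKM + 1 (points) with its standard error (lines) for 42 genes of collagen folding and modification, secretion, processing and cross-linking, and binding, in 3 comparisons; filled red points were called higher, filled blue points lower and open points not called. In KO_siCtrl against WT_siCtrl, 20 genes were called lower and 10 higher (all tested genes 25.2% and 29.1%). Against KO_siCtrl, 21 were lower and 5 higher in KO_let-7g (all tested genes 18.2% and 27.5%). In KO_siNr6a1, 11 were lower and 9 higher (all tested genes 16.3% and 13.2%). The counts against KO_siCtrl include Itga10, which would not have passed the filter but for KO_siCtrl.

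Markers of osteoblasts, smooth muscle and adipocytes were mostly lower in KO_siCtrl than in WT_siCtrl, while the cartilage marker Sox9 was higher, as given above (log2 fold change 1.06 ± 0.18, adjusted p = 0.000413). Acan, Matn3 and Comp, cartilage markers below the filter, had lower means in KO_siCtrl and were not tested. Summed osteoblast markers were 428 to 843 FPKM in WT_siCtrl and 45.2 to 76.4 in KO_siCtrl, and 38.7 to 74.1 in KO_let-7g and 64.1 to 122 in KO_siNr6a1, and 6 of 7 were lower and 1 higher in KO_siCtrl than in WT_siCtrl. For this and the marker counts below, 25.2% of all tested genes were lower and 29.1% higher in that comparison. Sp7, Ibsp and Bglap would not have passed the filter without WT_siCtrl, and of the other 4, 3 were lower and 1 higher. Alpl, the bone alkaline phosphatase, was 543 ± 180.2 in WT_siCtrl and 32.5 ± 14.2 in KO_siCtrl. The sum over 6 smooth muscle and myofibroblast markers was 1628 to 2003 in WT_siCtrl and 26.1 to 29.5 in KO_siCtrl, with all 5 tested members lower, of which Cnn1 and Actg2 passed the filter through WT_siCtrl alone. It was 31.2 to 43.1 in KO_let-7g and 53.5 to 65.9 in KO_siNr6a1. Adipocyte markers summed to 601 to 850.0 in WT_siCtrl and 72.3 to 122 in KO_siCtrl, with all 4 tested members lower. The part of these differences in the collagen results was not tested.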

How the data were processed

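The authors deposited 1 table of FPKM values for 21881 genes in 12 libraries. TopHat 1.2.0, Cufflinks 1.0.3 and the mouse build mm9 were used, per the submitters' processing notes. Strand use in counting was not stated in those notes. As FPKM is relative to the library's total, a change in abundant genes moves the others, and read totals are unknown. Relative depth (1 to 1.82) came from the step of the lowest values. The 3 libraries per group limit the precision.

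The 11801 genes that reached 1 FPKM in 3 libraries or more were fitted as log2(FPKM + 1) with limma 3.58.1 in R 4.3.3: 12 libraries, 1 coefficient per group, 8 residual degrees of freedom, a variance trend, two-sided moderated tests and Benjamini-Hochberg adjustment over all tested genes, called under 0.05. Intervals are 95%. The steps were tested on simulated data. The 6 comparisons cover every pair of the 4 groups. Seed matches were searched in GENCODE M21 3′ UTRs, and microRNA and start site sequences came from RefSeq (GRCm38.p6).

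The members and the lists of pathway and marker genes were chosen with earlier results of these data known. Named genes were Nr6a1 and Dicer1, and every collagen gene, with all library values where the mean reached 50 FPKM in a group or a called log2 change reached 1 in size in the first 4 comparisons. Up to 3 called pathway genes per sub-list and comparison with the largest changes could also be named. The marker genes given by name were chosen after their values were seen, as was a count without genes that would not have passed the filter but for 1 of the compared groups.

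Same-numbered libraries deviated from their group means together (correlations of 0.127 to 0.465 in the first 4 comparisons). On this evidence, and on no label, the numbers were taken to pair the libraries there. The fit itself has no block. Alternatives were other pseudocounts, filters, scalings and variance models, 2 groups only, the replicate block and leaving out each library.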

Additional observations from a re-analysis of the deposited data

How the results depend on the processing

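Of 75 calls on collagen genes over 6 comparisons, 66 were kept in every setting in which the gene was tested (16 or 17 per call). The other 9 were lost in at least 1, and no called collagen gene turned sign. Genes left untested by the filter on a mean FPKM of at least 5 were not counted as lost there. All 18 calls of KO_siCtrl against WT_siCtrl, all 7 of KO_let-7g against KO_siNr6a1 and all 18 of KO_siNr6a1 against WT_siCtrl were kept wherever tested. Small counts moved most. The 1 gene lower in KO_let-7g than in KO_siCtrl became 2 with a pseudocount of 0.1, with no filter, with median of ratios scaling, with library weights, with 2 groups only and with the replicate block, 3 with quantile scaling, and 0 to 1 when 1 library was left out. The 1 gene lower with the Nr6a1 siRNA became 4 with no filter and with library weights, 2 with 2 groups only, and 0 to 1 with a library left out. The 5 genes higher with let-7g than in KO_siCtrl became 3 at a mean FPKM of at least 5 and 3 to 5 with a library left out. The 1 gene higher in KO_let-7g than in KO_siNr6a1 became 0 at that filter and without Col5a3, which would not have passed the main filter but for KO_let-7g (a count chosen after seeing the data), 6 with library weights, 3 with the replicate block and 1 to 3 with a library left out. The filter at a mean of 5 tests fewer genes, and gave 3 in place of 5 higher genes in KO_let-7g and 8 in place of 13 lower genes in KO_siNr6a1 against WT_siCtrl. Beyond the effect of that filter, the cause was not tested. The Col1a2 change with let-7g turned to -0.0269 with median of ratios scaling. That of Col5a2 turned to -0.0480 with this scaling, and leaving out 1 library gave -0.0347 to 0.142. The Serpinh1 fall in KO_siCtrl turned to 0.0123 with quantile scaling. Of 157 calls on pathway genes, 127 were kept in every setting in which the gene was tested. Pairing by replicate number changed no other collagen call than those given here and in the results, apart from Col8a2 lower with let-7g (adjusted p = 0.0386), Col4a5 lower in KO_let-7g than in KO_siNr6a1 (0.0399), and Col12a1 (0.00757), Col4a5 (0.0321) and Col5a2 (0.0188) in KO_siNr6a1 against WT_siCtrl, where the lowest same-number correlation was 0.0915. All 12 libraries correlated best with their own number. Without read totals, low FPKM carries an unknown counting error.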
